A study of Mus musculus with 2 samples.

Results

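Kidney stromal cells with high combined transcript levels of Clec3b, Sfrp4, Apod, Cxcl13, Gpc3 and C3 were described in the single-cell library labelled UUO (for unilateral ureteral obstruction, in which tying a ureter leads to scarring of the kidney). They are called adventitial-like fibroblasts here, and they were 202 of 675 kept cells of that library. The name is for the class as a whole, and 1 subgroup described below was low in Pi16, a marker of such fibroblasts. The library held 1291 barcodes, of 12103 in the series. Each kept cell was scored by the mean, over the 6 genes, of ln(1 + UMIs per 10000), where a UMI (unique molecular identifier) stands for 1 captured transcript. Members were the cells in the top 30% of that score, and they were compared with the 473 other kept cells. Kept cells had at least 1500 UMIs and at most 10% of them from mitochondrial genes. They carried at least 3 of Col1a1, Col1a2, Col3a1, Dcn, Pdgfra and Pdgfrb, and at most 1 of Pecam1, Ptprc, Epcam, Tyrobp and Umod. The members were thus chosen on measured values of the same cells, and what follows in the library labelled UUO is a description with no test.

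Adventitial fibroblasts lie in the connective tissue cuff around larger vessels and are known in many organs for Pi16, Dpp4, Cd34 and Ly6a (Sca-1) expression. They secrete matrix proteins, complement components and chemokines, and they differ from pericytes and smooth muscle cells, which wrap vessels more closely and carry contractile proteins. Of the genes in the score, Clec3b encodes tetranectin, a secreted plasminogen-binding lectin, and Sfrp4 a secreted WNT antagonist. Apod is a lipocalin, Cxcl13 a chemokine that attracts B cells, Gpc3 a heparan sulphate proteoglycan of the cell surface, and C3 the central complement component.

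The series holds 2 libraries from kidneys of FVBN mice, 1 labelled sham and 1 labelled as taken 10 days after UUO. Cells positive for PDGF receptors alpha and beta were taken after digestion with Liberase TL and DNAse and mechanical dissociation, as labelled, and were run on droplet-based 3′ chemistry (10x Chromium version 2). The labels used here name no age, sex, number of animals, pooling or reporter allele, although the gene list has an eGFP entry with UMIs in both libraries. Each group being 1 library, no value has a replicate. Differences between the libraries cannot be told apart from the library or the animal, so cells are named by library label and no effect of obstruction is read. Spp1 (osteopontin), known to be high in obstructed kidneys, ran against the labels, at 74.3 CPM in members and 326 in other kept cells labelled UUO, against 2025 and 12743 in the matching classes labelled sham. The library labelled UUO held 6023072 UMIs, and its kept cells had a median of 6008 (lowest 1514, highest 35963). The library labelled sham held 85359332 UMIs over 10812 barcodes, of which 8514 were kept, with a median of 8540.5 UMIs. Of the barcodes, 16 occurred in both libraries, 7 among kept cells, and 3 members shared a barcode with any droplet labelled sham. All intervals are 95% intervals and cover counting error only.

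The score was spread widely in the library labelled UUO and had no gap at the threshold. It ran from 0, in 4.44% of kept cells, to 2.95, with a median of 0.76. Members had a median of 1.97 and other kept cells 0.596. The lowest member had a score of 1.3646 and the highest nonmember 1.3634. Within 0.1 of the threshold lay 16 members and 11 other cells. The class is a range of the score, and whether its cells form a group of their own among all kept cells was not tested. Of the 5 members just inside it, 5 had a Clec3b UMI, 5 Sfrp4, 4 Gpc3, 2 C3, 2 Apod and 0 Cxcl13. Of the 5 cells just outside, 5 had Clec3b, 5 Gpc3, 4 C3, 3 Sfrp4, 3 Apod and 1 Cxcl13. All 6 genes were detected in 42 members, 5 in 76, 4 in 70 and 3 in 14.

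**Figure D1:**
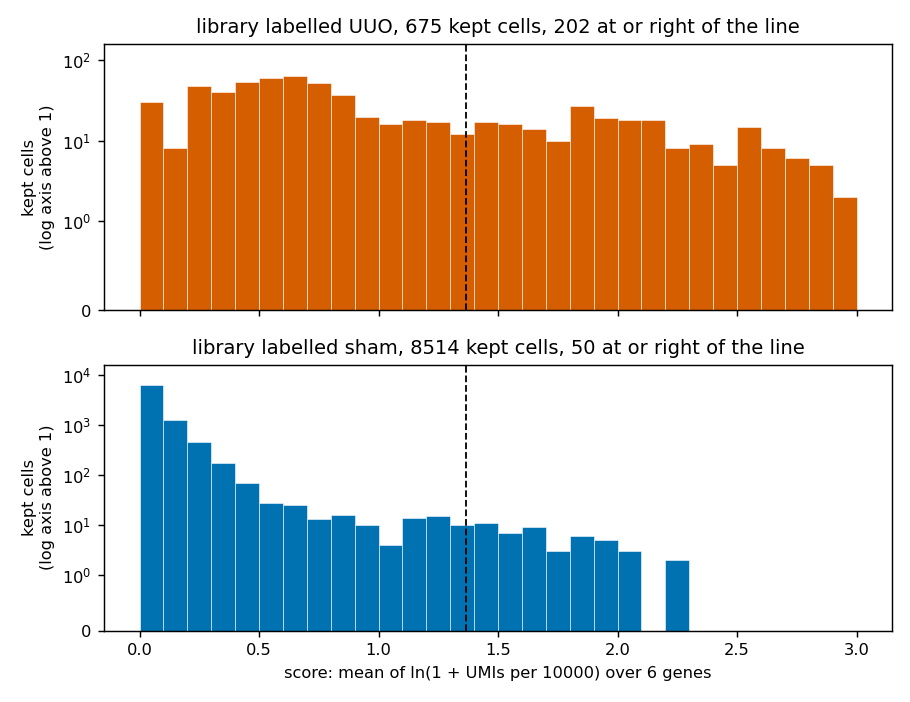
Kept cells by score in each library, with the number of cells on a log axis above 1 and the score (mean of ln(1 + UMIs per 10000) over 6 genes) on the horizontal axis. The dashed line is the threshold of the library labelled UUO, with 202 of 675 cells at or right of it there and 50 of 8514 in the library labelled sham.

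Cells with so high a score were scarce in the library labelled sham. There, 70.5% of kept cells had a score of 0 and 2511 cells (29.5%) a score above 0. The threshold of the library labelled UUO was reached by 50 cells, or 0.587% (0.436% to 0.774%), against 29.9% of kept cells labelled UUO, a share that the rule sets. These 50 cells had a median of 9124 UMIs, and they are used below as the class of the same score in a library that played no part in choosing the members. None of the members shared a barcode with them.

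The values of the 6 genes chose the members and are given as a description. Levels are UMIs summed over a class, as counts per 1000000 summed UMIs (CPM). Clec3b was at 3770 CPM in members and 293 in other kept cells, and Sfrp4 at 2501 and 242. Apod was at 1658 and 117 CPM, Cxcl13 at 577 and 15.5, Gpc3 at 1270 and 247, and C3 at 1301 and 130. The genes differed in how evenly members carried them. Clec3b had a UMI in 100% of members and Gpc3 in 97.0%, while Apod had one in 67.3% and Cxcl13 in 31.7%. Apod reached 948 UMIs per 10000 in the highest member, against a median of 1.81. For Cxcl13 the median was 0 and the highest member had 130 UMIs per 10000. After each cell was thinned to 1500 UMIs, Clec3b was detected in 93.1% of members and 27.97% of other kept cells, Sfrp4 in 64.9% and 22.7%, and Cxcl13 in 14.9% and 1.91%. Apod was detected after thinning in 38.1% and 11.9%, Gpc3 in 79.2% and 30.1%, and C3 in 68.8% and 17.8%. In 11 droplets with endothelial markers, a type that should lack these genes, the thinned share was 9.09% for Clec3b (0.230% to 41.3%), 27.3% for Sfrp4 (6.02% to 61.0%), 18.2% for Gpc3 (2.28% to 51.8%) and 0% for Apod, Cxcl13 and C3 (0% to 28.5%). The droplets were picked both for endothelial markers and for carrying few of the stromal genes used to keep cells. With so few droplets, the shares of the other kept cells lay within these intervals for all 6 genes. Median depths were 7821 UMIs in members, 5257 in other kept cells and 2787 in the endothelial droplets, and unthinned shares of other kept cells were 59.2% for Clec3b, 55.4% for Sfrp4 and 8.03% for Cxcl13.

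In the library labelled sham, the 50 cells at or above the threshold also carried the 6 genes unevenly. Apod was at 3967 CPM in them, yet only 36% of the 50 cells had an Apod UMI, and the highest held 583 UMIs per 10000. C3 was at 1721 CPM with a UMI in 96% of them, Sfrp4 at 1951 CPM (94%), Clec3b at 946 CPM (86%), Gpc3 at 727 CPM (84%) and Cxcl13 at 438 CPM (18%). Other kept cells labelled sham had 3.77 CPM of Apod, 26.3 of C3, 27.2 of Sfrp4, 9.12 of Clec3b, 24.9 of Gpc3 and 1.59 of Cxcl13. Clec3b led the 6 genes in members labelled UUO, whereas Apod led in the class labelled sham.

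The promoters of genes that the score averages are shown as a description. RefSeq promoter sequences (250 bases before to 50 after the annotated start, build GRCm38.p6) were matched for 4 of the 6 genes, Apod, Cxcl13, Gpc3 and C3, and had no entry for Clec3b and Sfrp4. Capitals mark matches on either strand to the motifs searched, TATAAA (the TATA box), CCAAT (the CCAAT box), TGACTCA (known for AP-1), GGGCGG (the GC box), TTGCGCAA (known for C/EBP proteins) and GGAATTTCC (known for NF-kappaB), none of which overlapped another.
Cxcl13, chr5:95956689-95956988, plus strand: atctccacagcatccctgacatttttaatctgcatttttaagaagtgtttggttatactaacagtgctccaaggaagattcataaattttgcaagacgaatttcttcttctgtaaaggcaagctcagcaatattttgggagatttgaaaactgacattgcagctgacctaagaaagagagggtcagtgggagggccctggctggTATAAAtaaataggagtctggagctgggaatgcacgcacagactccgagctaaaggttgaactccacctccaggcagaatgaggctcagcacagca
C3, chr17:57228087-57228386, minus strand: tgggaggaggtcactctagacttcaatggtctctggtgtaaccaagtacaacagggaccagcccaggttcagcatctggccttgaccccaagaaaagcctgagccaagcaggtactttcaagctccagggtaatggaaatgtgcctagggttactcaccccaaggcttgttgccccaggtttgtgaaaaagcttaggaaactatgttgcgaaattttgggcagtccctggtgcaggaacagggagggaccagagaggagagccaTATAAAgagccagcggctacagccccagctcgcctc
Gpc3, chrX:52613925-52614224, minus strand: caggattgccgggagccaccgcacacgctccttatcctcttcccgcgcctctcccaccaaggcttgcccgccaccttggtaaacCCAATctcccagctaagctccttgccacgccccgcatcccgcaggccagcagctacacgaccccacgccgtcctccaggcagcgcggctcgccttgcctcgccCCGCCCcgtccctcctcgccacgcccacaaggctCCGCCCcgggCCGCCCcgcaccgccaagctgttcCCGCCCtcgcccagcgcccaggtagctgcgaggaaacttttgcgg
Apod, chr16:31314759-31315058, minus strand: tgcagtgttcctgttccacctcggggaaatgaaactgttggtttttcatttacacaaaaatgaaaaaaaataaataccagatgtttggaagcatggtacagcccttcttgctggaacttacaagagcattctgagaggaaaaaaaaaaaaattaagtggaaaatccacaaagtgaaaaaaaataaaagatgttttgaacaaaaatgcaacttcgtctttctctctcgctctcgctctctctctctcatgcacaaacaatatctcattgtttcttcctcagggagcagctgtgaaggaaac
Cxcl13 has TATAAA 46 bases before its start, and C3 has it 14 bases after. Gpc3 has CCAAT once and GGGCGG 4 times on the other strand, at 63, 29 and 19 bases before the start and 5 after. The Apod window holds none of the 6 motifs. Of 27025 promoters of this length, TATAAA is in 14.2%, CCAAT in 37.9%, GGGCGG in 35.9%, TGACTCA in 5.17%, TTGCGCAA in 0.185% and GGAATTTCC in 0.322%. A match describes letters only.

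Most of a list of 19 adventitial fibroblast markers outside the score was higher in members. Of the 19, 16 were at least 2-fold higher after 5 CPM were added to each class, 1 was at least 2-fold lower, and the median log2 ratio was 2.03. Over all 9779 genes with at least 10 CPM in either class the median was -0.21, with 362 genes (3.7%) higher by 2-fold or more and 820 (8.39%) lower. Since the rule used this contrast, nothing is read from these shares. Summed over the list, members had 9651 CPM and other kept cells 2610.

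Pi16, a secreted peptidase inhibitor that marks adventitial fibroblasts across organs, was at 2088 CPM in members and 379 in other kept cells, 5.51-fold higher (5.15 to 5.90). Dpp4, a surface protease of progenitor-like fibroblasts, was at 36.5 and 5.17 CPM from 61 and 15 UMIs, and 15.3% of members had a UMI. Igfbp6, a binder of insulin-like growth factor 2, was at 970 and 114 CPM, Scara5, a ferritin receptor, at 246 and 23.4, and Penk, the enkephalin precursor, at 875 and 113. Cd34, the sialomucin, was at 444 and 99.99 CPM and Ly6a at 1234 and 371, 3.32-fold higher (3.08 to 3.58). Dpt, the matrix protein dermatopontin, was at 767 and 164 CPM. The exceptions were Ly6c1 at 467 and 344 CPM, Col14a1, a fibril-associated collagen, at 347 and 421, and Limch1 at 5.99 and 19.0 from 10 and 55 UMIs. Limch1 changed direction when the comparison cells were restricted, with a log2 ratio of 0.67 against cells high in Igfbp3, Adamts5 and Fbln5. Penk also stands in a list of 11 perivascular and parenchymal fibroblast markers. Of these, 3 were at least 2-fold higher in members (Penk, Meg3 and Inmt), 3 lower and 5 within 2-fold. The median log2 ratio of that list was 0.33.

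The same list stood higher in the class of the same score labelled sham. There 18 of the 19 genes were measured and 17 were at least 2-fold higher, with a median log2 ratio of 2.77, against 6.1% of 9142 genes in all and a median over all genes of -0.21. Another 10.6% of all genes, and 0 of the list, were at least 2-fold lower. Pi16 was at 736 CPM against 89.7 in other kept cells labelled sham, Dpp4 at 52.1 against 0.629, Igfbp6 at 1543 against 83.4 and Scara5 at 154 against 1.67. Ly6c1 and Col14a1, within 2-fold in the library labelled UUO, were at 649 against 92.0 CPM and 538 against 105. The class at the threshold was added after seeing the data. With the looser class of any score above 0, which mixes in many cells with 1 UMI of a score gene, the list hardly differed. Of 13 measured list genes 1 (Pcolce2) was at least 2-fold higher and 0 lower. The median log2 ratio of the list was 0.28, against -0.01 over all genes. Of all 8542 genes there, 0.48% were at least 2-fold higher and 0% lower.

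**Figure D2:**
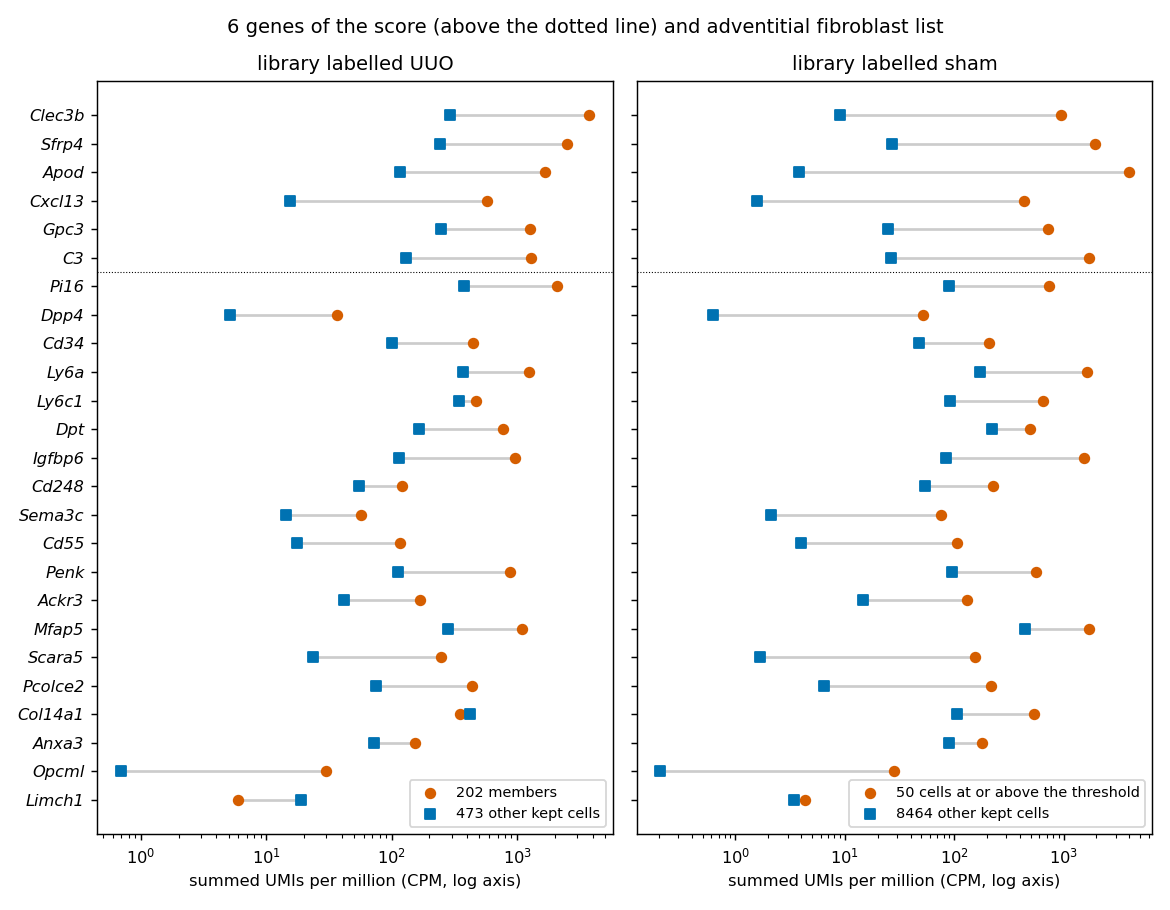
Summed CPM (log axis) of the 6 genes of the score and of 19 adventitial fibroblast markers in members and other kept cells labelled UUO (left) and in the 50 cells at or above the same threshold and other kept cells labelled sham (right). Pi16 is at 2088 against 379 CPM on the left and 736 against 89.7 on the right, while Limch1 and Col14a1 are the markers not higher in members labelled UUO.

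Across all genes, those higher in members were mostly higher in the class labelled sham too. Leaving out the 6 score genes, 290 genes were at least 2-fold higher in members and measured in both libraries. Of them 201 (69.3%) were at least 2-fold higher in the class labelled sham and 3 lower, against 5.02% higher among all 8359 genes measured in both. Of 570 genes at least 2-fold lower in members, 321 (56.3%) were at least 2-fold lower in the class labelled sham and 8 higher, against 10.1% lower among all. The class labelled sham was chosen by the same 6 genes, and both libraries come from the same sort and chemistry. A gene that reached 10 CPM only in the high-scoring class could not be called lower there, so these shares are a description.

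**Figure D3:**
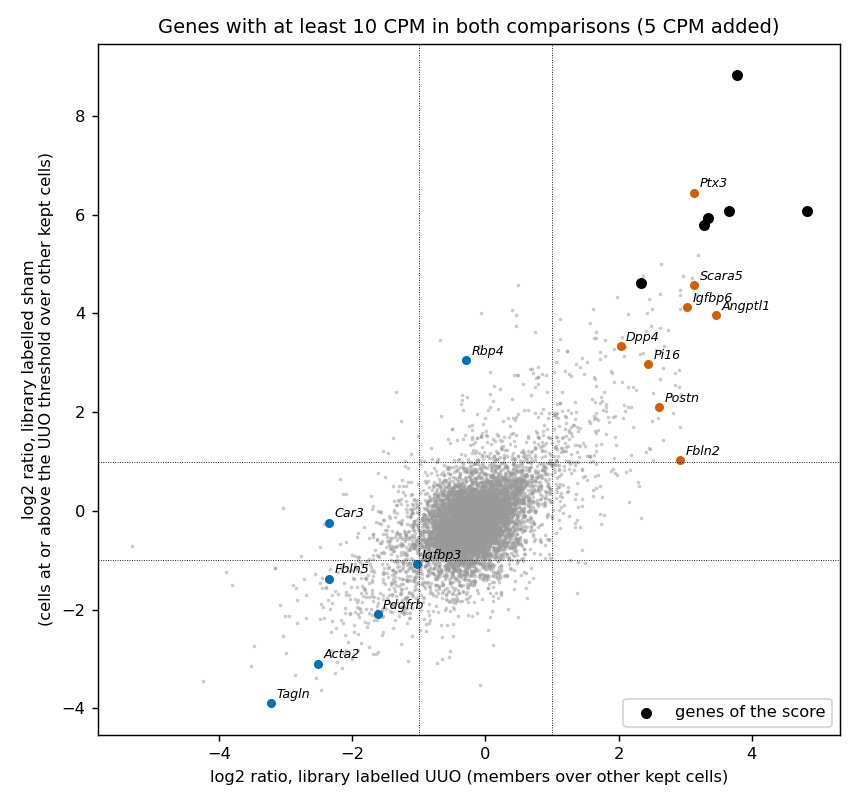
Log2 ratios of genes with at least 10 CPM in both comparisons, members over other kept cells labelled UUO (horizontal) against cells at or above the same threshold over other kept cells labelled sham (vertical), after adding 5 CPM, with dotted lines at 2-fold. Black points are the score genes, and Rbp4 (-0.29 and 3.06) is 1 of the labelled genes far from the diagonal.

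The 14 highest ratios outside the score included genes of several kinds. Angptl1, an angiopoietin-like secreted protein, was at 84.5 CPM in members and 3.10 in other kept cells, 27.2-fold higher (13.9 to 60.8). Cilp, a cartilage matrix protein, was at 58.1 and 3.10 CPM, and Epyc (epiphycan, a small proteoglycan) at 126 and 9.31. Ptx3, a pentraxin that helps to crosslink hyaluronan, was at 236 and 22.4 CPM, and Tnfaip6, a hyaluronan-binding protein, at 277 and 32.1. Myoc (myocilin) was at 121 and 9.65 CPM, Vit at 112 and 10.3, Bmper, a BMP modulator, at 117 and 11.0, and Fbln2, an elastic fibre component, at 187 and 20.3. In the class labelled sham, Ptx3 was at 1042 against 7.01 CPM, Epyc at 334 against 4.26 and Angptl1 at 97.7 against 1.59. Fbln2 differed less there, at 226 against 108 CPM. Ifi205 (143 and 11.4 CPM labelled UUO) and Ifi211 (232 and 26.2) belong to a family of near-identical genes and are uncertain. The 14 with the highest ratios also held Scara5, Igfbp6 and Gm32885, an unnamed locus at 613 and 76.5 CPM.

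The lowest ratios outside the lists of other cell types included membrane and signalling genes. These were picked in the same contrast, with the minimum level asked of the higher class only, and are likewise a description. F2r, the thrombin receptor, was at 49.1 CPM in members and 440 in other kept cells, 8.95-fold lower (7.15 to 11.3), and at 65.1 against 400.1 in the classes labelled sham. Cx3cl1 (fractalkine, a membrane-bound chemokine) was at 28.8 and 263 CPM, and at 32.6 against 271 labelled sham. Cck, a peptide hormone, was at 65.9 and 507 CPM, and Sorbs2, a cytoskeletal adaptor, at 4.19 and 62.1 from 7 and 180 UMIs. F2r, Cx3cl1, Cck and Sorbs2 were at least 2-fold lower in both libraries. Serpina1d had 3 UMIs in members and 771 in other kept cells, 148-fold lower (50.4 to 719), but it is uncertain because Serpina1b (54.5 and 438 CPM) is a near-identical gene. Adap2 (10.8 and 123 CPM) and its antisense partner Adap2os (20 and 550 UMIs) cannot be told apart unless strand was used in the counting, which the labels do not say. The carboxypeptidase Cpm was at 13.8 and 141 CPM.

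Contractile and mural genes were lower in members. All 16 measured genes of the contractile list were at least 2-fold lower, with a median log2 ratio of -1.78, and in the class labelled sham 13 of 16 were, with a median of -1.38. Acta2 (smooth muscle actin) was at 141 CPM in members and 834 in other kept cells, 5.90-fold lower (5.16 to 6.77), and Tagln at 74.3 and 732. In the library labelled sham Acta2 was at 169 against 1486 CPM and Tagln at 78.1 against 1236. Mylk, the myosin light chain kinase, was at 57.5 and 362 CPM in the library labelled UUO and 115 and 285 in that labelled sham. Of 7 measured pericyte markers 5 were at least 2-fold lower in members, among them Rgs5 at 29.4 and 277 CPM, and all 6 measured smooth muscle and renin cell markers were. Rgs5 did not differ in this way in the library labelled sham, at 39.1 and 37.5 CPM.

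Markers of other cell types were found in both classes. All 9 endothelial markers were at least 2-fold lower in members, at 202 CPM in sum against 1193, and 90 of the other kept cells carried at least 4 of them against 9 members. Without the 135 other cells that carried many endothelial, mural or tubule markers, Limch1 and Fabp4 changed direction, and 303 of the 362 higher genes and 534 of the 820 lower genes kept their call. Marker-rich members were left in, 30 by this limit and 151 with at least 4 markers of any list. The proximal tubule list summed to 4756 CPM in members and 6216 in other kept cells, with 5 of 7 markers at least 2-fold lower. At least 6 tubule markers were carried by 18 of 202 members and 29 of 473 other kept cells. At least 4 were carried by 151 and 319. All 5 erythroid genes were lower in members, at 365 against 5582 CPM in sum, with 1 haemoglobin-rich droplet among the other cells. Without it the median log2 ratio of that list was 0.05. Immune lists were low in both classes, and the rule for kept cells had limited Ptprc and Tyrobp. In members and other kept cells the macrophage and dendritic list summed to 76.7 and 107 CPM, and B and plasma to 8.39 and 10.7. T and NK genes summed to 0.599 and 2.07 CPM, neutrophil genes to 3.59 and 7.59 and mesothelial genes to 2.40 and 2.07. In members, Adgre1 of 9 macrophage and dendritic genes, 5 of 6 T and NK genes and 3 of 4 neutrophil genes were at 0 UMIs. Upk3b, Lrrn4 and Upk1b of 5 mesothelial genes were at 0 UMIs too. These zeros do not set members apart. The Schwann cell list summed to 26.4 CPM in members and 13.1 in other kept cells, with S100b, its 1 measured gene, at least 2-fold higher (log2 ratio 1.27) and Sox10 at 0 UMIs. The part of these cells in single gene differences was not tested.

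PDGF receptors split between the classes. Pdgfra was at 255 CPM in members and 214 in other kept cells, 1.19-fold higher (1.05 to 1.35), while Pdgfrb was at 68.9 and 222, 3.23-fold lower (2.64 to 3.97). In the class labelled sham Pdgfra was at 237 CPM against 234 and Pdgfrb at 65.1 against 293. A Pdgfrb UMI was found in 35.1% of members (28.6% to 42.2%) and a Pdgfra UMI in 78.7% (72.4% to 84.1%), although the label names both receptors. In the 11 endothelial droplets both shares were 0%, from a median of 2787 UMIs. Those droplets were picked to carry few of the genes used to keep cells, Pdgfra and Pdgfrb among them. Their 0% was thus largely set by that choice. In both libraries Pdgfrb was thus lower in the high-scoring class and Pdgfra within 1.2-fold. Without other cells carrying at least 4 markers of any mural, endothelial or tubule list the log2 ratio of Pdgfra was -0.23.

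Some fibrillar collagens and proteoglycans were higher in members. Col3a1 was at 2872 and 996 CPM and Col1a1 at 1942 and 1055, 1.84-fold higher (1.75 to 1.93). Of 7 measured fibrillar collagens 3 were at least 2-fold higher and none lower, with a median log2 ratio of 0.96. Col1a1, Col1a2, Col3a1, Dcn, Pdgfra and Pdgfrb were used to keep cells, and without them 2 of 4 fibrillar collagens were higher. Of 12 small leucine-rich proteoglycans 6 were at least 2-fold higher, led by Epyc, and none lower, or 5 of 11 without Dcn. Dcn (decorin) was at 22698 and 6594 CPM, and Bgn (biglycan) at 1530 and 2516. Of 8 measured myofibroblast markers 2 were at least 2-fold higher in members and 3 lower, with a median log2 ratio of -0.26. Without the genes used to keep cells, 1 of 6 was higher and 3 lower, with a median of -1.63. Postn (periostin), often listed with myofibroblasts, was at 281 and 41.7 CPM, 6.74-fold higher (5.50 to 8.30), and at 323 against 71.7 in the library labelled sham. Tnc (tenascin C) went the other way, at 12.6 and 79.3 CPM in the library labelled UUO and 21.7 against 257 in that labelled sham. Against cells high in Igfbp3, Adamts5 and Fbln5 the log2 ratio of Tnc was 0.02. Col6a5 and Col6a6, chains of collagen VI, were at 23.4 and 1.72 CPM and at 36.0 and 3.79 CPM.

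Elastic fibre genes were mixed. Fbln5 (fibulin 5) was 5.14-fold lower in members (482 and 2477 CPM) and Emilin1 3.36-fold lower (118 and 397), while Fbln2 and Emilin2 were higher, Emilin2 at 113 and 12.1 CPM. The list had 4 genes at least 2-fold higher and 2 lower of 19. Of 17 measured basement membrane genes 3 were lower, among them Col18a1 at 46.7 and 241 CPM, and 1 higher, Lama4 at 46.7 and 19.0.

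**Figure D4:**
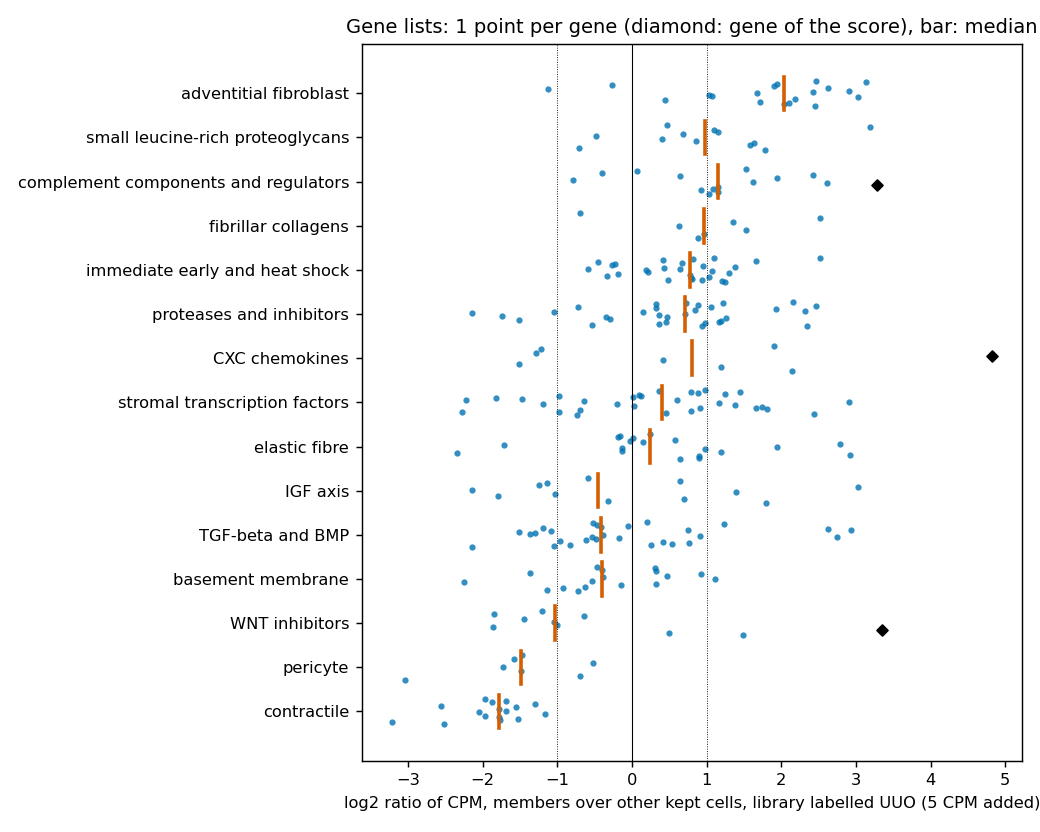
Log2 ratio of CPM (5 CPM added) in members over other kept cells labelled UUO for the measured genes of 15 lists, with 1 point per gene, diamonds for score genes and a bar at each list's median. The adventitial fibroblast list has its median at 2.03 and the contractile list at -1.78, with dotted lines at 2-fold.

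Leaving out C3, which chose the members, 9 of 14 measured complement genes were at least 2-fold higher in members and none lower, with a median log2 ratio of 1.11. C4b, cleaved in the classical pathway, was at 114 and 14.5 CPM and Cd55, which protects cells from complement, at 116 and 17.6. In the class labelled sham 8 of 18 complement genes other than C3 were higher and 5 lower, with C4b at 256 against 7.39 CPM. Over all genes, 3.7% were higher and 8.39% lower in members, and 6.1% and 10.6% in the class labelled sham. All list counts of these comparisons are to be read beside those shares.

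Chemokines did not move as 1 group. Of 8 measured CXC genes 4 were at least 2-fold higher in members and 3 lower, or 3 higher and 3 lower of 7 without Cxcl13, which chose the members. Cxcl1, a neutrophil chemokine, was at 671 and 148 CPM, and Ackr3, a scavenging receptor for Cxcl12, at 169 and 41.4. The log2 ratio of Cxcl1 was 3.06 in cells with Xist and no Y-linked UMIs, and 0.38 in those with Y-linked and no Xist UMIs. That of Ackr3 was 0.72 in cells with Xist and no Y-linked UMIs. Cxcl12 itself was at 2754 and 2063 CPM. Cxcl14 was lower, at 606 and 1484. Of 10 CC chemokines 2 were higher, the eosinophil chemokine Ccl11 (1095 and 261 CPM) and Ccl7 (366 and 66.9), and 3 lower. The lowest was Ccl21a at 74.3 and 1100 CPM, whose count is uncertain because Gm13304 and Gm21541 are near-identical copies, each at 61.1 and 586 CPM. Both copies changed direction, to a log2 ratio of 0.40, when all other cells with at least 4 tubule, mural or endothelial markers were left out. Il6 was at 266 and 64.8 CPM and Csf1 at 123 and 48.6, of 9 measured cytokines of which 2 were higher and 1 lower.

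WNT genes included more inhibitors that were lower in members than higher. Sfrp4, used in the score, and Sfrp1 (960 and 338 CPM) were at least 2-fold higher, and 6 of 10 measured inhibitors were lower, Frzb at 21.6 and 91.7 CPM among them. Notum, an enzyme that inactivates WNT ligands, had 2 and 50 UMIs (14.4-fold lower, 3.78 to 122). Its log2 ratio was -1.84 against all other kept cells, but -0.15 against the cells high in Igfbp3, Adamts5 and Fbln5. Rspo1, a WNT enhancer, was at 50.9 and 11.0 CPM, and Fzd4, a receptor, at 77.9 and 30.0. Nkd2, an intracellular WNT inhibitor, was at 4.79 and 10.3 CPM from 8 and 30 UMIs, and at 23.9 against 164 CPM in the classes labelled sham.

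Growth factor genes varied within each list. Igf1 was at 593 and 168 CPM in members and other kept cells, while Igfbp5 was at 145 and 659 CPM. Of 12 IGF genes 3 were at least 2-fold higher and 5 lower. Igfbp3 was at 1546 and 3175 CPM and Igfbp2 at 0.599 and 14.5 from 1 and 42 UMIs. With the top 40% of cells as members the log2 ratio of Igfbp2 was 0.72, above 0. The activin antagonist Fst (follistatin) was at 331 and 45.2 CPM, and Tgfb1, the fibrogenic cytokine, was at 25.8 and 130 CPM, 5.06-fold lower (3.68 to 7.11). Tgfb1 was also lower in the class labelled sham, at 49.9 against 261 CPM. Of 29 TGF-beta and BMP genes 4 were higher and 7 lower.

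Hedgehog coreceptors Gas1 (410 and 129 CPM) and Cdon (22.2 and 3.10) were higher in members, and 3 of 8 hedgehog genes were at least 2-fold higher and none lower. Ptch1, a receptor that is also a pathway target, was at 22.8 and 34.1 CPM, and Hhip, a secreted antagonist, at 31.2 and 47.9. Against the cells high in Igfbp3, Adamts5 and Fbln5 both were higher in members, with log2 ratios of 0.60 and 1.06.

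Of 32 measured transcription factors of stromal cells, 9 were at least 2-fold higher in members, 5 lower and 18 within 2-fold. Ebf2 was at 65.9 and 4.48 CPM and Osr1 at 167 and 26.9, and in the class labelled sham they were at 34.7 against 0.465 and 104 against 1.74. Foxf1 was at 8.39 and 59.6 CPM and Alx1 at 4.19 and 37.9. The log2 ratio of Foxf1 was -2.27 against all other kept cells, but -0.20 against the cells high in Igfbp3, Adamts5 and Fbln5. Tcf21, a fibroblast regulator, was at 259 and 437.

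Of 31 measured proteases and inhibitors 10 were at least 2-fold higher in members and 4 lower. Mmp3 (stromelysin) was at 243 and 44.1 CPM, but at 310 against 345 in the library labelled sham. Pcolce2, which enhances procollagen processing, was at 439 and 75.5 CPM, and Adamtsl2 at 22.2 and 114. Dissociation-responsive genes should be read beside these values. Of 28 immediate early and heat shock genes 9 were at least 2-fold higher in members and none lower, with a median log2 ratio of 0.78, Myc at 174 and 26.2 CPM and Dnajb1 at 769 and 239. In the class labelled sham 8 of 29 were higher and 2 lower, with a median of 0.41. Against the cells high in Igfbp3, Adamts5 and Fbln5, 21 of 28 were higher in members, with a median of 1.52. How far the handling of cells moved with the class was not tested. Of 23 secretory pathway genes 0 were 2-fold higher or lower, and of 24 interferon genes 2 were higher (Irf1 and H2-Q7) and 1 lower (Ifit3).

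Some genes had different values in the libraries. Inmt, a methyltransferase, was at 1195 and 380 CPM in the library labelled UUO. In the class labelled sham it had 0 UMIs, which allows up to 6.51 CPM (3 counts over the class), so no difference from the 2.75 CPM of the other kept cells there was detectable. Rbp4, the retinol carrier, was at 667 and 818 CPM in the library labelled UUO, and at 163 against 15.2 in that labelled sham. Against the cells high in Igfbp3, Adamts5 and Fbln5, however, Rbp4 was higher in members labelled UUO too, with a log2 ratio of 1.24. Col15a1, a basement membrane zone collagen, was at 200 and 158 CPM, and at 208 against 525 labelled sham. Differences between the libraries were not tested.

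Members overlapped little with the cells high in Igfbp3, Adamts5 and Fbln5, a class chosen the same way in this library. Taking the top 30% of kept cells on those 3 genes gave 202 cells, of which 9 were members, 4.46% of each class. Members were compared with the 193 others of it. Of 9865 genes, 595 (6.03%) were at least 2-fold higher in members and 1031 (10.5%) lower. Against them the log2 ratio of Cd34 was 3.21, of Sema3c 3.17, of Fbln2 3.93 and of Ly6a 2.80, while that of Ccl21a, -3.80 against all other kept cells, was -0.34 and that of Rgs5 was -0.41. Car3, lower in members against all other cells (log2 ratio -2.35), was higher against these, at 1.27. The cells high in Car3 and Rbp4 overlapped the members more, with 83 shared, 41.1% of each class. Members were 29.9% of all kept cells, the share to read both overlaps against. Cell depth differed, with a median of 4538 UMIs in the 193 cells.

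The markers Pi16, Igfbp6 and Scara5 were flat over the lower scores and climbed over the upper ones, but not every marker of the adventitial list did. With the kept cells in 10 bins of equal size by score, Pi16 was at 305 CPM in bin 1 (the lowest scores), 262 in bin 5, 639 in bin 7, 1454 in bin 8 and 2785 in bin 10, and it was higher in each bin from 6 to 10 than in the one before. Igfbp6 was at 69.0, 89.6, 197, 805 and 1147 CPM in the same bins and Scara5 at 25.4, 12.5, 76.7, 154 and 317, also higher at each step from bin 5 on. Of the same list, Col14a1 was at 214 CPM in bin 1, 579 in bin 7 and 272 in bin 10, and Limch1 at 18.2, 4.65 and 4.89. Ly6c1 was at 385, 125 and 718 CPM in those bins and Ly6a at 447, 270 and 1906. Pdgfrb was lower at high scores, at 243 CPM in bin 1, 162 in bin 5 and 42.4 in bin 10. Fbln5 was at 1812, 3074 and 449 CPM in bins 1, 5 and 10. The median depth was 3464 UMIs in bin 1 and 8998 in bin 10. Of 2145 genes outside the score found in at least 10% of the kept cells thinned to 1500 UMIs, Dcn followed the score most closely over 675 cells, with a Spearman correlation of 0.62, then Gsn at 0.60, Serpinf1 at 0.57, Mfap5 at 0.49 and Gm32885 at 0.48. The next were Meg3 (0.48), Lum (0.46), Penk (0.44), Igfbp6 (0.44) and Pcolce2 (0.42). These cells share 1 library, so the correlations are a description.

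The members themselves were not uniform. Clustered on genes other than those of the score, Xist, Y-linked genes and eGFP, they formed 5 numbered subgroups of 47, 47, 42, 38 and 28 cells at a resolution of 0.8, and 4 of 74, 48, 42 and 38 at 0.4. The subgroups were drawn from these cells after values had been seen, are given no names, and carry no test.

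Subgroup 1 held most of the Apod, at 5352 CPM against 193 to 806 in the other 4, but had the least Sfrp4 (327 CPM) and Pi16 (211 CPM). Its Pi16 and Ly6c1 (131 CPM) were below the levels given above for other kept cells. Its Cd34 (223 CPM) and Dpp4 (9.68 CPM from 4 UMIs) were above them. Its leading genes were Vtn, Trf, Enpp2, Car3 and Lpl, with Ccl11 at 2522 CPM and Col15a1 at 489. Subgroup 2 had the most Sfrp4, at 6227 CPM, and little Cxcl13, at 17.3, and was led by Ptn, Ifitm1 and Bace2. Subgroup 3 was led by Myoc, Avpr1a and Hpgd, with C3 at 2187 CPM. Subgroup 4 held the most Pi16 (4637 CPM), Cxcl13 (1251) and Ly6c1 (1206), and 53 of the 61 Dpp4 UMIs of members. It was led by Ptx3, Smpd3, Dpp4 and Anxa3, with Has1, a hyaluronan synthase, at 832 CPM. Subgroup 5 was led by Ccn5 and Ccn2, with C3 at 278 CPM, Rbp4 at 1954 and Fbln1 at 2505. Median depth ran from 5789 UMIs in subgroup 2 to 9346.5 in subgroup 4.

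**Figure D5:**
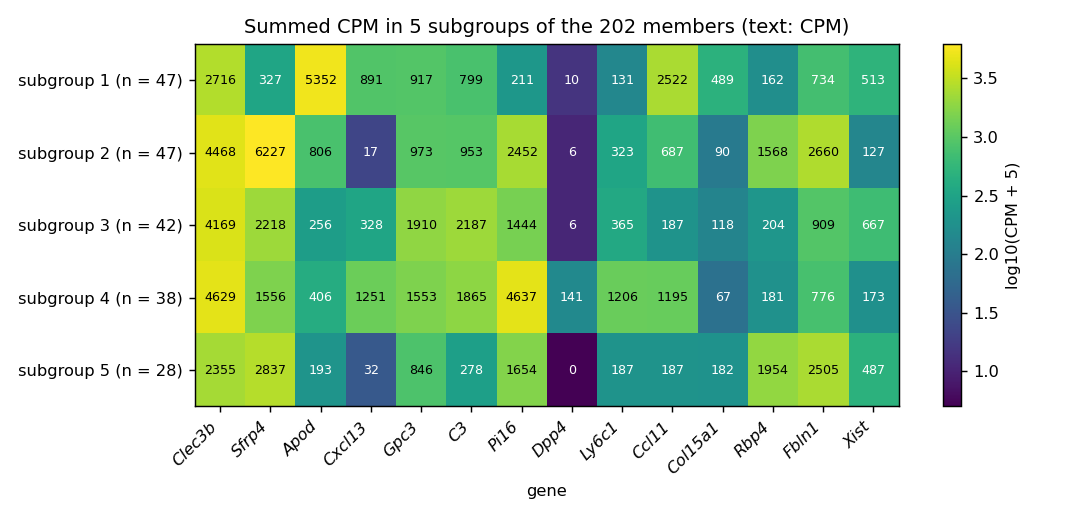
Summed CPM of 14 genes in the 5 subgroups of the 202 members, printed in each cell and coloured by log10(CPM + 5). Apod peaks in subgroup 1 (5352 CPM), Sfrp4 in subgroup 2 (6227 CPM) and Pi16 in subgroup 4 (4637 CPM).

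Xist, transcribed from the inactive X, and 4 Y-linked genes were both found in the library. Of members, 60 had Xist and no Y-linked UMI, 65 the reverse, 35 both and 42 neither, and the share of members was 30.9% (24.5% to 37.9%) of Xist-only and 31.0% (24.8% to 37.7%) of Y-linked-only cells. It was 45.5% among cells with both, at a median of 9950 UMIs, and 21.6% among cells with neither, at 4022.5. Subgroup 3 held 23 Xist-only and 5 Y-linked-only cells, and subgroup 4 held 5 and 18. Animal and subgroup cannot be told apart there. Among cells with only Xist UMIs the log2 ratio of Anxa3 turned to -0.12. That of Myoc was 3.75 in Xist-only and 1.31 in Y-linked-only cells. Whether droplets with both held more than 1 cell was not tested. With the 4 cells of the highest doublet scores left out, 1 member and 3 others, all 362 higher genes and 802 of the 820 lower genes kept their call.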

How the data were processed

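Transcripts of single kidney cells were measured in 2 libraries, 1 per group. The deposited values are estimated counts of UMIs per gene and droplet, made by the authors with alevin of Salmon 0.13.1 and the mm10 build, per the submitters' processing notes. For the choice of droplets and the use of strand, the sources used here give no account. Of nonzero values, 91.2% (UUO) and 92.3% (sham) were whole within 1e-06. The depth of each library stands in the text. Members and gene lists were chosen with earlier results of these data known.

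Summed counts per class were scaled to CPM and rounded where an exact interval needed whole counts (exact conditional binomial for ratios, Clopper-Pearson for shares). Log2 ratios had 5 CPM added, over genes with at least 10 CPM in either class. No test was possible with 1 library per group, and cells are not replicates. Genes were named by rule: the 6 score genes, the 14 highest and 14 lowest ratios at 50 CPM and 50 UMIs or more, up to 4 genes per list, all measured adventitial, perivascular and myofibroblast genes, and a few fixed genes. Leading genes of subgroups, Spp1 and genes listed at 0 were named after their values were seen.

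The top 30% of cells labelled sham would have taken in cells with a score of 0, so cells above 0 were used, and the class at the UUO threshold was added after seeing the data. Subgroups (1500 variable genes, 15 components and neighbours, Leiden clustering) were also added then. Doublets were scored and left out only as an alternative. Thinning to 1500 UMIs left out 1 droplet labelled UUO and 21 labelled sham. GENCODE M21 held 52806 of 53698 gene entries, and 659 of 660 list symbols matched, 6 by an older symbol. The interval step was tested on simulated data. Python 3.11.15, numpy 2.4.6, scipy 1.17.1, pandas 2.3.3, scanpy 1.11.5 and matplotlib 3.10.9 were used.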

Additional observations from a re-analysis of the deposited data

Results flagged for a closer look

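Of the 8359 genes measured in both libraries, 11 were at least 2-fold apart in opposite directions, and the difference between the libraries was not tested. They were 3 of the 290 genes higher in members (1.03%, against 10.1% of all genes lower in the class labelled sham). The rest were 8 of the 570 lower in members (1.40%, against 5.02% of all genes higher there). Both shares lay below those over all genes. Adh1, an alcohol and retinol dehydrogenase, had a log2 ratio of 1.38 in members over other kept cells labelled UUO and -1.67 in the class of the same score labelled sham. The latter rests on 15 UMIs in the high-scoring class. Pamr1 had 1.501 and -1.06, and Rai2 1.38 and -1.03 from 3 UMIs.

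The other 8 were lower in members labelled UUO and higher in the class labelled sham. Folr1, a folate receptor, had log2 ratios of -1.35 and 2.41 (32 UMIs), and Plscr2 had -1.27 and 1.82 (39 UMIs). Tbxa2r, the thromboxane receptor, had -1.02 and 1.52, Lrg1 -1.39 and 1.48, and Amn -1.53 and 1.22. Pcp4l1 had -1.47 and 1.17, Steap2 -1.11 and 1.16, and the growth factor Fgf1 -1.21 and 1.00. All 11 had between 3 and 39 UMIs in the 50 cells labelled sham.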

How the results depend on the processing

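No paired analysis was possible because each group has 1 library. Of 123 named genes at least 2-fold apart, 80 stayed so in the same direction in all 25 settings, 110 kept their direction and 13 did not. The 362 higher genes became 195 with 20 CPM added, 214 at 50 CPM or more and 595 against the cells high in Igfbp3, Adamts5 and Fbln5. The 820 lower genes became 290 and 294 in the first pair of these settings, 1306 in Xist-only cells, 1259 in Y-linked-only cells and 1261 without other cells carrying at least 4 markers of any mural, endothelial or tubule list. Members numbered 58 in Xist-only and 63 in Y-linked-only cells.

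In cells labelled sham with a score above 0, the 41 higher genes became 75 for the top 20%, 119 with a thinned score, 16 with 20 CPM added, 18 at 50 CPM or more, 24 in Xist-only and 76 in Y-linked-only cells. The 0 lower genes became 5 for the top 20% and with 1 CPM added, 4 with a thinned score or split UMIs, 8 with equal weight per cell, 3 without the highest doublet scores, without Sfrp4 or without cells carrying Xist and Y-linked UMIs, 1 without Gpc3 or C3, and 29 in Y-linked-only cells. At the UUO threshold, the 558 higher and 965 lower genes became 941 and 1874 for the top 20%, 296 and 282 with 20 CPM added, 281 and 303 at 50 CPM or more, 1015 and 1858 in Xist-only and 1473 and 2483 in Y-linked-only cells. The share of 0.587% became 0.188% for the top 20%, 1.10% for the top 40%, 0.356% in Xist-only cells, and 0.846%, 0.799% and 0.329% without Clec3b, Gpc3 and C3.

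Of 40 named genes within 2-fold, 22 changed sign in at least 1 setting, among them Ly6c1 (-0.34 in Y-linked-only cells) and Nkd2 (0.0733 without cells rich in 4 markers of any list). Among genes at least 2-fold apart and list medians past 2-fold, directions changed as follows, in log2 ratios. Without other cells rich in 4 markers of any list, Gm21541 and Gm13304 were at 0.40, Fabp4 at 0.38, Igfbp2 at 0.16 and Ndrg1 at 0.00834, and the proximal tubule and erythroid medians at 0.475 and 0.0720. With 6 tubule markers required, Limch1 was at 0.30 and Fabp4 at 0.38. Against cells high in Igfbp3, Adamts5 and Fbln5, Car3 was at 1.27, Limch1 at 0.67, Bmp5 at 0.64, Cxcl10 at 0.11, Fabp4 at 0.0807, Tnc at 0.0224 and the erythroid median at 0.00518. In Xist-only cells Anxa3 was at -0.12, Ifit3 at 0.14 and the erythroid median at 0.0302, which was 0.0658 in Y-linked-only cells, 0.0543 without the haemoglobin-rich cell and 0.0466 without cells carrying both. Ccl5 was at 0.0557 with a thinned score, and Igfbp2 at 0.72 for the top 40% and 1.10 without Clec3b. The cause was not tested. The marker-rich, Igfbp3-class and both-transcript settings, and the class labelled sham at the UUO threshold, were chosen after seeing the data, and the tubule minimum was raised from 4 to 6 after its first version. Counts in the 50 cells labelled sham limit single genes there most.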
